A study of Mus musculus with 8 samples.

Results

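The genes described here are the 7 that carry bile acids across the absorptive cell of the ileum and report their presence: Fabp6, Slc10a2, Slc51a, Slc51b, Nr1h4, Fgf15 and Nr0b2. They were taken by symbol from the gene table of the deposited matrices, which lists 27998 genes, and all 7 were found. The data are single-cell RNA sequencing of cells sorted for EpCAM, an epithelial surface protein, from small intestinal crypts of adult mice. The KO mice were homozygous for a germline deletion of ieCtnnb1, an intestinal enhancer upstream of Ctnnb1, the gene for beta-catenin, whose coding sequence is intact. The WT controls, per the study's methods, carried a reporter of that enhancer (Shh promoter, ieCtnnb1 core, LacZ and iCre) at the H11 locus and were not plain wild-type animals. Both groups were female and on a C57BL/6 background. The labels list 4 samples in each group, while the counts came as 1 pooled matrix per group with no map from cells to animals, so each group is 1 sample. No difference between WT and KO could therefore be set against a spread between animals, and every interval given is a 95% interval that covers counting error only.

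Bile acids are made in the liver, emptied into the duodenum and recovered in the ileum. The sodium-dependent transporter Slc10a2 takes them up at the brush border, the cytosolic carrier Fabp6 binds them inside the cell, and the paired subunits Slc51a and Slc51b release them on the blood side. Nr1h4 encodes FXR, the nuclear receptor for bile acids, which as a dimer with RXR drives transcription of Fabp6, Slc51a, Slc51b, the hormone Fgf15 and the corepressor Nr0b2 (SHP). Fgf15 travels to the liver and lowers bile acid synthesis there. In the mouse gut uptake by Slc10a2 is a property of the ileum, so the levels of these genes depend on how much of a sample is ileal.

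The promoters of the 4 transport genes are shown because these genes were higher together in KO. Promoters from RefSeq, build GRCm38.p6, were found for 6 of the 7 members, Fgf15 being without one. The 250 bases before each transcript start were searched on both strands for AGGTCA, the half-site of many nuclear receptors, for an inverted repeat of that half-site with 1 base between, which is the element FXR and RXR are best known to bind, for AGATAA, which GATA factors read, for TTTATG, which CDX factors read, and for TATAAA, which the TATA-binding protein reads. Each stretch ends at the base before the RefSeq start, or before the GENCODE gene where that reaches further upstream (Slc10a2 and Slc51b), reads 5′ to 3′ on the strand of the gene, and has the matches in capitals. The stretches lie at chr11:43601563-43601683 for Fabp6, chr8:5105352-5105419 for Slc10a2, chr16:32487880-32487989 for Slc51a and chr9:65422956-65422986 for Slc51b, all on the minus strand.
Fabp6: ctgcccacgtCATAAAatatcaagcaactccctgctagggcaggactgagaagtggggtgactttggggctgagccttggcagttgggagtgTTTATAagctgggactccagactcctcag
Slc10a2: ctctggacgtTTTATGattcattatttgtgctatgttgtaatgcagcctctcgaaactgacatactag
Slc51a: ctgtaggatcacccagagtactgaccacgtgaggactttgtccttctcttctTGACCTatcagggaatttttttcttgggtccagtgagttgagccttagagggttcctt
Slc51b: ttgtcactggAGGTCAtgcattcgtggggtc
AGGTCA was found in the Slc51a, Slc51b and Nr1h4 windows, 3 of the 6, and in 14.0% of all 32851 promoter windows of that length. TTTATG was found in Fabp6, Slc10a2 and Nr1h4 (10.8% of all windows), TATAAA in Fabp6 and Nr0b2 (12.4%) and AGATAA in Nr1h4 (9.99%). The Nr1h4 matches lie inside the gene as GENCODE places it, which reaches further upstream than the RefSeq start. The inverted repeat was in none of the 6 and in 2 of all windows, which says only that these exact letters do not stand there.

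Cells were assigned to classes by marker genes that include none of the 7 members, and a class is called "-like" because the names were rebuilt from markers. The classes were mature and immature enterocytes (mEC-like, imEC-like), transit-amplifying cells (TAC-like), crypt base columnar stem cells (CBC-like), goblet (GC-like), enteroendocrine (EEC-like), tuft (TC-like) and Paneth cells (PC-like). In all, 13095 WT and 8658 KO cells were kept, with a median of 6675 and 8691.5 UMIs (unique molecular identifiers, each standing for 1 captured transcript). Enterocyte-like cells, meaning mEC-like and imEC-like cells together, numbered 1692 in WT (1228 and 464) and 1533 in KO (1126 and 407), and 1 barcode was shared between the matrices among them. In mEC-like cells the 14 markers of mature enterocytes summed to 27829 UMIs per 1000000 (CPM) in WT and 55108 CPM in KO, against 1964 and 2746 CPM in TC-like cells. The gate on mature markers cut through a continuous range, with 103 WT and 52 KO cells at 100 to 125 mature marker UMIs per 10000, just inside it, and 101 and 94 cells at 80 to 100, just outside. In mEC-like and imEC-like cells the summed level was at most 4.76 CPM for 10 immune markers, 0.525 CPM for 8 stromal and endothelial markers and 0.262 CPM for 4 erythroid markers, while Paneth cell markers reached 37691 CPM in WT and 22331 CPM in KO mEC-like cells, close to their level in TC-like cells (34733 and 17575 CPM). Ctnnb1, the gene whose enhancer was deleted, stood at 119 CPM in WT and 91.8 CPM in KO over all kept cells. The mitochondrial limit removed 1898 WT and 4084 KO barcodes.

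Fabp6 was by far the most abundant member. The mEC-like class had 2186 CPM (WT) and 14932 CPM (KO), the imEC-like class 6887 CPM and 10541 CPM. WT was thus highest in the immature class and KO in the mature one. Outside the enterocytes WT ranged from 77.5 CPM in CBC-like to 980 CPM in EEC-like cells, and KO from 303 CPM in EEC-like to 2428 CPM in GC-like cells. TC-like cells, a secretory lineage in which the members have no known role, held 349 CPM in WT and 1220 CPM in KO. CBC-like, PC-like and TAC-like cells in both matrices and EEC-like cells in KO lay below the TC-like level, and the part of free RNA in the levels outside the enterocytes was not tested. Enterocyte-like cells exceeded TC-like cells 11.1-fold in WT and 10.9-fold in KO. In KO 96.0% of TC-like cells had at least 1 Fabp6 UMI, which shows how far a bare share of positive cells can mislead for this gene (median depth 13549 UMIs, against 6812 in WT).

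**Figure D1:**
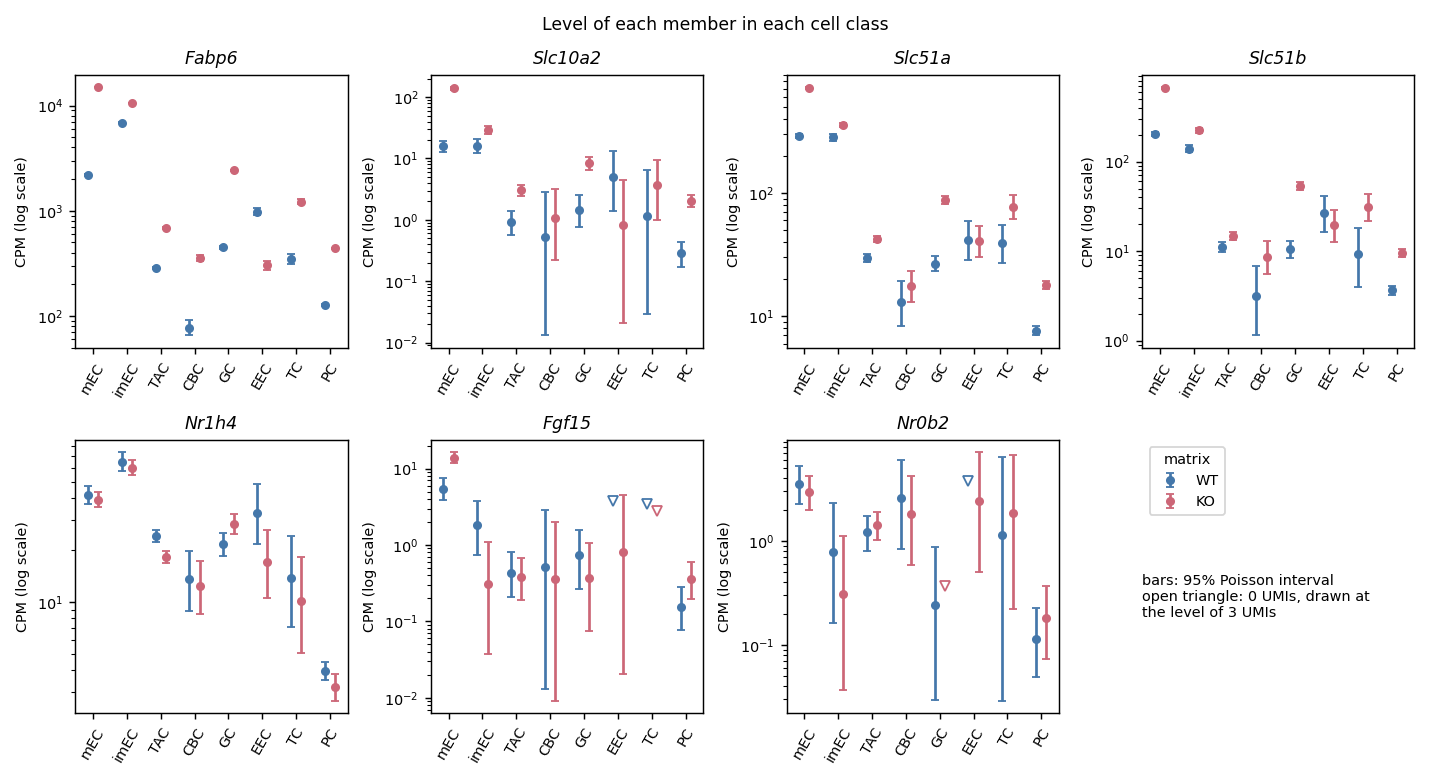
Level of each member in each cell class, in CPM on a log axis, for the WT matrix (blue) and the KO matrix (red), with 95% Poisson intervals; an open triangle marks 0 UMIs and is drawn at the level of 3 UMIs. Fabp6, Slc10a2, Slc51a and Slc51b are highest in mEC-like and imEC-like cells in both matrices, Nr1h4 is spread over more classes, and Fgf15 and Nr0b2 rest on few UMIs.

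The uptake transporter Slc10a2 was highest in enterocytes. In mEC-like cells it stood at 15.8 CPM (WT) and 139 CPM (KO), while imEC-like cells had 16.01 and 29.2 CPM. The next class in WT was EEC-like, at 5.08 CPM on 4 UMIs that all came from 1 of 159 cells. Its interval overlaps that of mEC-like cells, but it treats these UMIs as independent. The next class in KO was GC-like (8.33 CPM). Of all Slc10a2 UMIs in kept cells, 57.9% in WT and 76.7% in KO lay in enterocyte-like cells.

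The export subunits were close to each other in level and in pattern. Levels of Slc51a were 289 CPM (WT) and 706 CPM (KO) among mEC-like cells, against 282 and 356 CPM among imEC-like cells. Levels of Slc51b were 206 and 667 CPM among the former, against 140 and 223 CPM among the latter. The intervals of mEC-like and imEC-like cells overlapped for Slc51a in WT, and in all other cases mEC-like cells were higher. Over 16 points (8 classes in each of the matrices, all sharing their 2 libraries) the gene most like Slc51a in log2(CPM + 1) was Slc51b, with Pearson's r of 0.983, among 11137 genes. The next were the amino acid transporter Slc7a9 (0.982) and the sulfotransferase Sult2b1 (0.977). For Slc51b the list went on with the dicarboxylate transporter Slc13a2 (0.967) and Slc10a2 (0.964), for Slc10a2 it held Slc51b, Slc13a2 (0.960) and Fabp6 (0.952), and for Fabp6 it held Slc51b (0.956), Slc10a2 and Slc51a (0.946).

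The receptor gene Nr1h4 had a flatter profile. It was highest in imEC-like cells, at 65.3 CPM in WT and 60.2 CPM in KO, followed by mEC-like cells at 41.8 and 39.3 CPM. TAC-like cells had 24.1 and 18.2 CPM, GC-like cells 21.6 and 28.3 CPM and PC-like cells 3.98 and 3.20 CPM. Only 29.1% of its WT and 40.2% of its KO UMIs lay in enterocyte-like cells. The genes most like it were Igsf5 (r = 0.972), Zdhhc7 (0.968) and Itpk1 (0.946), none of them a member.

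The FXR targets Fgf15 and Nr0b2 were sparse. Fgf15 had 44 UMIs in 1692 WT and 149 UMIs in 1533 KO enterocyte-like cells, or 4.16 and 8.74 CPM, and 0 UMIs in TC-like cells of either matrix, where 3 UMIs, the floor used here, would be 3.44 CPM in WT and 2.76 CPM in KO. The genes most like it were Cml5 (r = 0.948) and Plb1 (0.942), and Plb1 is one of the distal markers used below. Nr0b2 had 27 and 33 UMIs in enterocyte-like cells (2.55 and 1.94 CPM), and its intervals overlapped between all neighbouring classes in both matrices, so that no order of classes can be read for it.

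In KO against WT enterocyte-like cells, the 4 transport genes and Fgf15 were higher, while the intervals for Nr1h4 and Nr0b2 included 0. Fabp6 had 3879 CPM in WT against 13254 CPM in KO (log2 ratio 1.77, 1.76 to 1.79). Slc10a2 had 15.9 against 97.1 CPM (2.61, 2.38 to 2.85). Both are differences between 1 pool of cells and another, and both shrank to less than 2-fold when clusters nearly all of 1 matrix were left out, as given further on. Slc51b had 182 against 497 CPM (1.45, 1.38 to 1.52) and Slc51a 287 against 572 CPM (0.996, 0.94 to 1.06), the latter just under 2-fold. Fgf15 had a log2 ratio of 1.07 (0.58 to 1.59). Nr1h4, at 50.3 and 47.3 CPM, had a ratio of −0.09 (−0.25 to 0.07) and Nr0b2 of −0.40 (−1.18 to 0.39), and the sign of both turned with the scaling: relative to the median of all genes Nr1h4 stood at 0.25, and per cell, with no scaling, at 0.74 and Nr0b2 at 0.43.

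Of the 7 members 4 were at least 2-fold higher in KO and 0 at least 2-fold lower, beside 2.11% of the 9893 genes with at least 50 UMIs that were higher and 16.7% that were lower. The median log2 ratio was 1.07 over the members and −0.34 over all genes tested. Scaled to that median of all genes, 5.38% of genes were at least 2-fold higher and 6.31% lower, and 5 of the members were higher. Ratios in these matrices also followed transcript length, with a median of 0.20 in the shortest of 4 equal groups of genes and −0.84 in the longest. Fabp6, Slc51b, Nr1h4 and Nr0b2 belong to the shortest group and Slc10a2, Slc51a and Fgf15 to the next one (median −0.20). Set against the median of its own group, Slc10a2 was higher by 2.81, Fabp6 by 1.57, Fgf15 by 1.27, Slc51b by 1.248 and Slc51a by 1.20 on the log2 scale, and Nr1h4 was at −0.29 and Nr0b2 at −0.60.

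**Figure D2:**
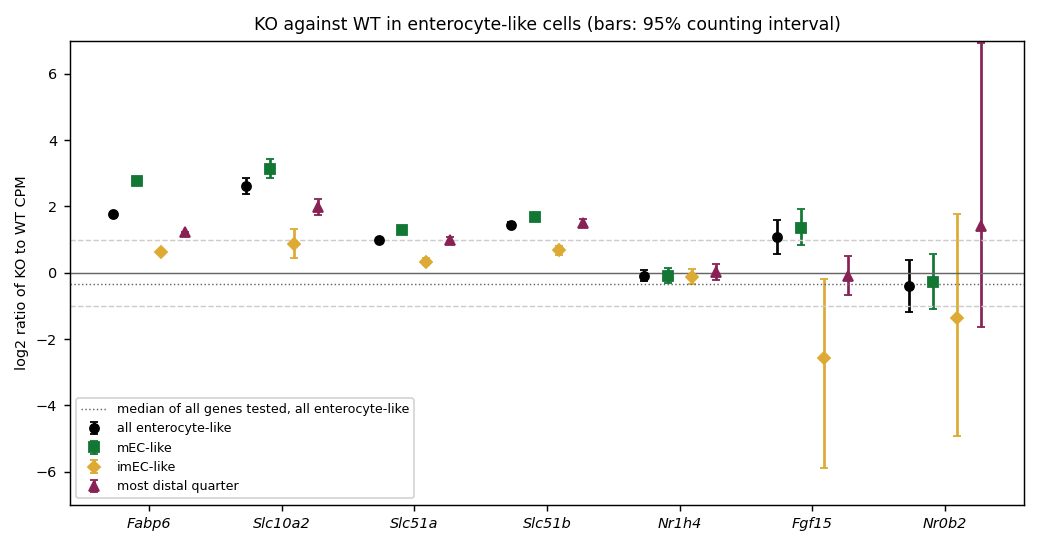
Log2 ratio of KO to WT CPM of each member in all enterocyte-like cells, in mEC-like and imEC-like cells alone, and in the most distal bin of enterocyte-like cells, with 95% counting intervals; dashed lines mark 2-fold and the dotted line the median of all genes (−0.34). Fabp6 lies at 1.77 over all enterocyte-like cells, 2.77 in mEC-like and 0.61 in imEC-like cells, and Nr1h4 lies near 0 throughout.

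How large the difference was depended on which enterocytes were taken. In mEC-like cells alone Fabp6 had a log2 ratio of 2.77, Slc10a2 of 3.14, Slc51b of 1.70, Slc51a of 1.29 and Fgf15 of 1.35, and 5 members were at least 2-fold higher and 0 lower (2.79% and 17.6% of the 8983 genes tested there). In imEC-like cells alone the same genes were at 0.61, 0.87, 0.67, 0.33 and −2.58, and 0 members were at least 2-fold higher (0.99% of 8386 genes). Fgf15 and Nr0b2 (−1.36) were the 2 members at least 2-fold lower there (17.3% of genes), on 7 and 3 WT UMIs and 2 KO UMIs each. Cells in which Fabp6 exceeded 10000 CPM numbered 151 in WT, of which 90 were imEC-like, and 408 in KO, of which 100 were imEC-like. A gate on mature markers alone thus left out a larger share of the Fabp6-rich cells in WT than in KO, and pooling both classes was chosen after these values were seen.

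The gated cells fell into different clusters in WT and KO. Leiden clusters of all kept cells, built without the 7 members, put 84.1% of WT and 65.6% of KO mEC-like cells into cluster 0, led by Fabp1 and Rbp2, and 83.0% and 71.0% of imEC-like cells into cluster 6. Cluster 18, led by Tmigd1 and Saa1, held 1.87% of WT but 18.3% of KO mEC-like cells, and cluster 19, led by Reg1, held 5.13% of WT and 0.09% of KO mEC-like cells. Cluster 18 carried the highest Fabp6, at 74259 CPM in its 25 WT and 76694 CPM in its 235 KO enterocyte-like cells. In cluster 0 the values were 741 and 4508 CPM and in cluster 6 they were 7559 and 5803 CPM, KO being the higher in the former and the lower in the latter. Without the cells of clusters in which over 90% of all cells came from 1 matrix, an alternative added after seeing the data that leaves out 155 WT and 414 KO enterocyte-like cells, Fabp6 stood at 3330 CPM in WT and 5082 CPM in KO (log2 ratio 0.61), with 1.75 in mEC-like and −0.13 in imEC-like cells. Slc10a2 was then at 0.94, Slc51b at 0.92, Fgf15 at 0.67, Slc51a at 0.63, Nr1h4 at −0.28 (−0.46 to −0.10) and Nr0b2 at −0.59, and 0 members were at least 2-fold higher. The classes differed here too. In imEC-like cells Slc10a2 was then at −0.63 (−1.24 to −0.03), Slc51a at −0.01 (−0.12 to 0.11) and Slc51b at 0.20 (0.04 to 0.37). In mEC-like cells Slc10a2 was at 2.23, Slc51a at 0.93 and Slc51b at 1.16. Cluster 18, with 26 WT and 255 KO cells in all, was only just past the 90% cut. Ratios with it kept in and the other such clusters left out were not computed. With 1 library per group, a cell state and a property of the library cannot be told apart in a cluster mostly of 1 matrix.

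Fabp6 was carried by a minority of cells. The highest 10% of WT enterocyte-like cells (169 of 1692) held 94.3% of its UMIs, and the highest 10% in KO (153 of 1533) held 67.7%. In the richest cell Fabp6 made up 10.8% of all UMIs in WT and 17.5% in KO. Cells above 10000 CPM were 8.92% of WT and 26.6% of KO enterocyte-like cells. Among those cells, which were chosen on Fabp6 itself, the pooled level was 39495 CPM in WT and 58248 CPM in KO. Slc51a and Slc51b were spread more evenly, the highest 10% of cells holding 37.4% and 42.7% of their UMIs in WT and 36.4% and 41.9% in KO.

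Because uptake by Slc10a2 is a property of the ileum, enterocyte-like cells were ordered by region with markers that include none of the members. The balance of a cell is the share of UMIs from 13 distal markers, among them Cubn, Amn and Slc34a2, in the sum of these and 11 proximal markers, among them Lct, Apoa4 and Fabp1. The median balance was 7.69% in WT and 25.4% in KO, and 45 cells with fewer than 5 such UMIs were left out. After division into 4 bins common to both matrices, the most distal bin held 322 WT cells (19.03%) and 469 KO cells (30.6%), and the most proximal one 485 (28.7%) and 311 (20.3%). By this balance KO cells lay further towards the distal end. The balance is a ratio, and it also follows maturity, because imEC-like cells have few proximal markers, at a median of 6.40 UMIs per 10000 in WT and 6.04 in KO. The summed distal markers stood at 1759 CPM in WT and 2080 CPM in KO enterocyte-like cells, being higher in KO among mEC-like cells (2010 and 2820 CPM) and lower in KO among imEC-like cells (1313 and 885 CPM). Singly, the distal markers had a median log2 ratio of 0.80, with 4 of 13 at least 2-fold higher, against −0.23 for the proximal ones, with 1 of 11 (Apoc3). Since the cells of each group were pooled before capture, a difference between animals, between the lengths of gut collected and between genotypes cannot be told apart here.

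Fabp6 and Slc10a2 were steeply distal. Fabp6 went from 113 CPM in the most proximal to 17198 CPM in the most distal bin in WT and from 242 to 39918 CPM in KO. The proximal values are below the level in TC-like cells of the same matrix. Slc10a2 went from 0.369 CPM (1 UMI) to 73.1 CPM in WT and from 2.91 to 287 CPM in KO, and 97.6% of its WT and 88.1% of its KO UMIs in enterocyte-like cells fell in the most distal bin. Fgf15 had 0 UMIs in the most proximal bin of either matrix and 38 and 80 in the most distal one, which is at least 15.3-fold higher in WT and at least 18.01-fold in KO, with the proximal bin put at 3 UMIs.

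The export subunits and the receptor had shallow gradients. Slc51a was 2.45-fold higher in the most distal than in the most proximal bin in WT (534 against 218 CPM) and 3.51-fold in KO (1052 against 300 CPM). Slc51b was 2.05-fold higher in WT (324 against 158 CPM) and 3.27-fold in KO (917 against 280 CPM). Nr1h4 was 2.42-fold and 3.57-fold higher. Nr0b2 ran the other way, with 15 WT and 19 KO UMIs in the most proximal bin and 1 and 6 in the most distal one, a log2 ratio of −3.63 (−9.03 to −0.93) in WT and −2.23 (−3.84 to −0.85) in KO. In the most proximal bin Slc51a was still above its level in TC-like cells (39.0 CPM in WT and 77.4 CPM in KO), whereas Slc10a2 had 1 UMI in WT and 10 in KO there.

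**Figure D3:**
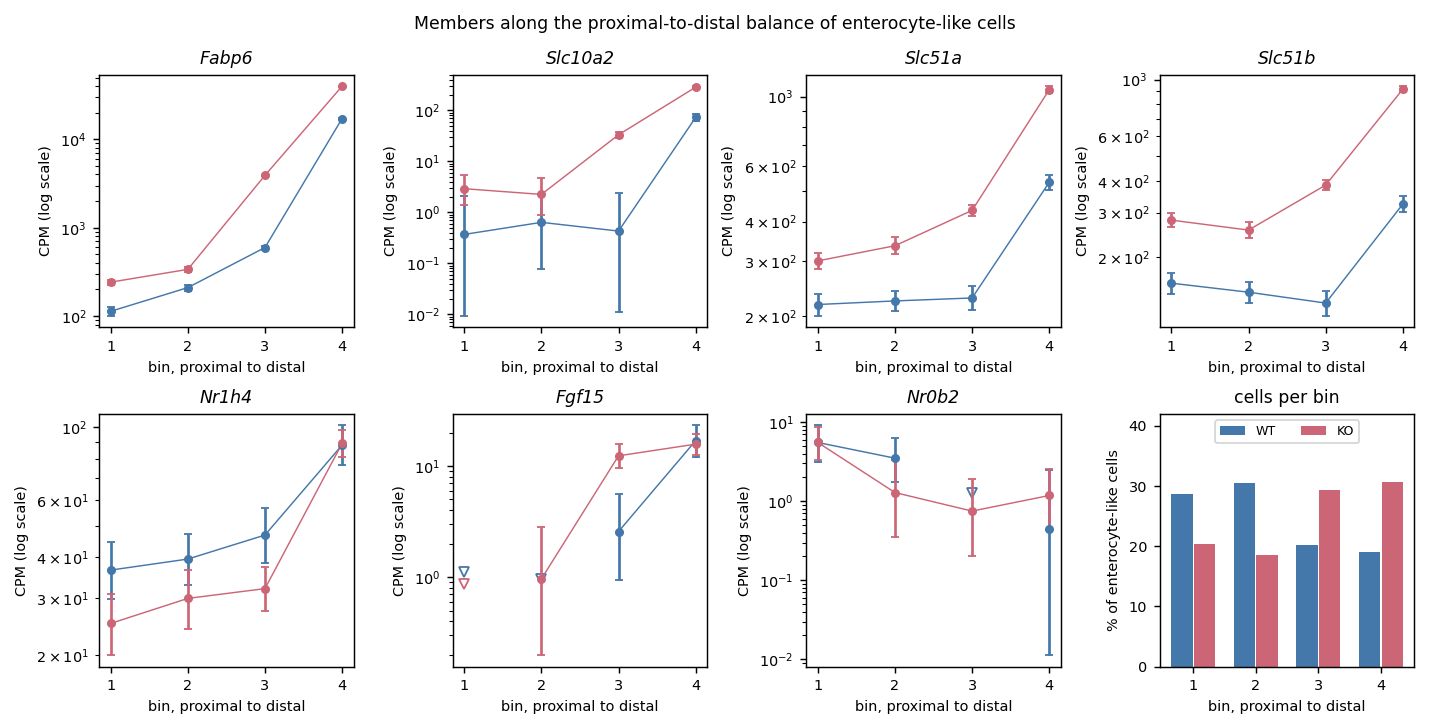
Level of each member in CPM (log axis) in 4 bins of enterocyte-like cells from proximal to distal, for WT (blue) and KO (red), with 95% Poisson intervals and open triangles for 0 UMIs drawn at the level of 3 UMIs; the last panel gives the percent of enterocyte-like cells per bin. Fabp6 reaches 17198 CPM in WT and 39918 CPM in KO in the most distal bin, which holds 19.03% of WT and 30.6% of KO cells.

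Within the most distal bin the transport genes were still higher in KO. Fabp6 had a log2 ratio of 1.21 (1.20 to 1.23), Slc10a2 of 1.97 (1.74 to 2.21), Slc51b of 1.501 (1.39 to 1.62) and Slc51a of 0.98 (0.89 to 1.07). Cluster 18 held 25 of the 322 WT and 209 of the 469 KO cells of this bin, and without clusters nearly all of 1 matrix (278 WT and 202 KO cells left) the ratios were 0.34 for Fabp6 (0.32 to 0.36), 0.23 for Slc10a2 (−0.22 to 0.68), 0.55 for Slc51b (0.41 to 0.70) and 0.37 for Slc51a (0.26 to 0.48). With all cells of the bin, Nr1h4 was at 88.3 CPM in WT and 89.3 CPM in KO (0.02, −0.23 to 0.27), and Fgf15 at 16.9 and 15.7 CPM (−0.11, −0.68 to 0.49). In that bin 2.33% of 7496 genes were at least 2-fold higher and 18.6% lower, with a median of −0.33. In the third bin Fabp6 was at 597 CPM in WT and 3912 CPM in KO (2.71), Slc10a2 had 1 UMI in WT and 178 in KO, and Fgf15 had 6 and 66. Weighting the KO bins as in WT left log2 ratios of 1.29 for Fabp6, 2.13 for Slc10a2, 1.23 for Slc51b, 0.79 for Slc51a, 0.61 for Fgf15, −0.28 for Nr1h4 and −0.20 for Nr0b2.

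Distal cells of the matrices also differed in maturity. In the most distal bin 230 of 322 WT cells but 188 of 469 KO cells were imEC-like, and the median share of mature markers was 47.0 per 10000 UMIs in WT and 161 in KO. Within groups of closer maturity the ratios of the 4 transport genes were below those of the whole bin. Among the imEC-like cells of that bin Fabp6 was at 14119 CPM in WT and 21875 CPM in KO (0.63), and among cells with 100 to 400 mature marker UMIs per 10000, 79 in WT and 141 in KO with a median of 153 and 212, at 29405 and 66220 CPM (1.17). In the same middle group Slc10a2 was at 214 and 485 CPM (1.18), Slc51b at 658 and 1358 CPM (1.05) and Slc51a at 964 and 1672 CPM (0.79). Fgf15 was lower in KO there, with 25 UMIs in each matrix, or 63.7 and 22.0 CPM (−1.53, −2.39 to −0.67). The most mature group held only 13 WT cells.

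At equal depth the share of cells with a UMI followed the same lines. After thinning to 1000 UMIs, Fabp6 was found in 70.8% of WT (65.5% to 75.7%) and 88.5% of KO cells (85.2% to 91.2%) of the most distal bin, and in 10.2% and 29.3% of TC-like cells. Slc10a2 was found in 6.21% (3.83% to 9.43%) and 23.1% (19.3% to 27.2%) of distal cells and in 0 of 480 WT and 0 of 310 KO cells of the most proximal bin. Both export subunits were found together in 16.8% (12.9% to 21.3%) of WT and 40.2% (35.7% to 44.8%) of KO distal cells. Nr1h4 was found in 9.63% and 9.19%, with overlapping intervals. Before thinning, Fabp6 was found in 43.1% of all WT and 91.6% of all KO enterocyte-like cells, and after it in 21.2% and 47.8%.

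**Figure D4:**
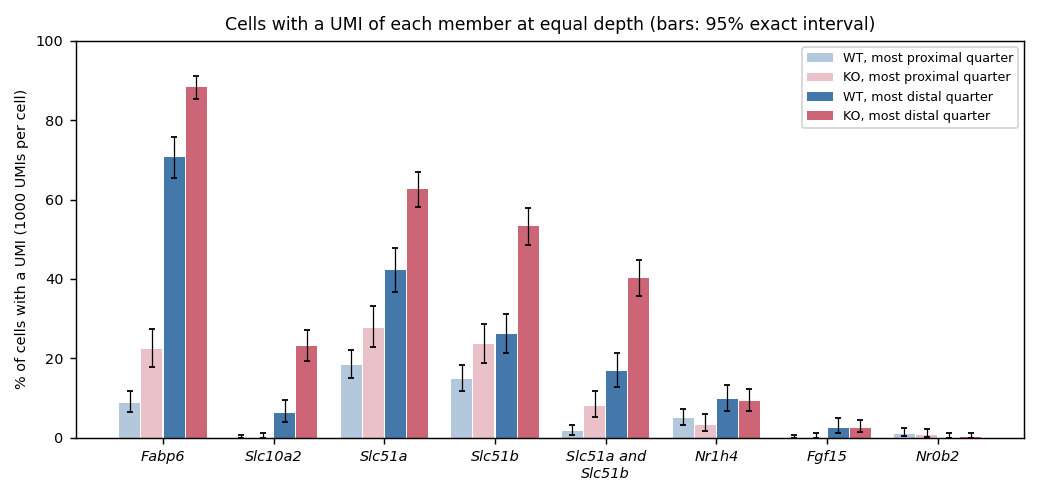
Percent of enterocyte-like cells with at least 1 UMI of each member, and of Slc51a and Slc51b together, after thinning every cell to 1000 UMIs, in the most proximal (pale) and most distal (full colour) bin of WT (blue) and KO (red), with 95% exact intervals. Slc10a2 is found in 6.21% of WT and 23.1% of KO distal cells and in 0 proximal cells of either matrix.

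The summed level of Fabp6 also differed in classes outside the enterocytes, where the part of free RNA was not tested. These values therefore do not show that cells of those classes made more of it. Fabp6 was higher in KO in TC-like cells (log2 ratio 1.81), PC-like (1.78), GC-like (2.44), CBC-like (2.20) and TAC-like cells (1.26). EEC-like cells went the other way, from 980 to 303 CPM (−1.69, −1.88 to −1.51), in a class of 159 WT and 86 KO cells. Kept cells in none of the classes were either unassigned (1677 in WT and 1091 in KO) or shallow. Shallow barcodes, with fewer than 1500 UMIs, made up 18.7% of WT and 31.2% of KO kept cells. All had Paneth markers between 1000 and 3500 per 10000 UMIs, a range outside every class gate. They were thus not counted as enterocyte-like, and Fabp6 was higher in KO there too (2071 against 5771 CPM, 1.48). Their leading genes included Fabp6 in WT and the distal marker Slc34a2 in KO. Others in KO, namely Myo15b, 2010109I03Rik, Ada and Clca4a, were also among the leading genes of Leiden cluster 1, which was left unnamed. That cluster held 92 WT and 1707 KO cells, of which only 3 and 81 were gated as enterocyte-like. What the rest of its cells were was not tested, and the comparison of enterocyte-like cells leaves them out. How many shallow barcodes were enterocytes was not tested, so they do not bear on cells other than enterocytes. With the TC-like level of the same matrix subtracted, Fabp6 in enterocyte-like cells had a log2 ratio of 1.77.

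The other genes of the pathway list were mostly lower in KO or within 2-fold. The list holds 49 genes outside the members, among them transporters of other routes, receptors, enzymes of bile acid synthesis and of detoxification, and 14 transcription factors of ileal or enterocyte genes. In enterocyte-like cells 32 had at least 50 UMIs, of which 1 was at least 2-fold higher, 11 at least 2-fold lower and 20 within 2-fold, beside the 2.11% and 16.7% of all genes given above. Their median log2 ratio was −0.75, beside −0.34 over all genes. Unlike the members, they were not set against genes of like transcript length, whose medians ran from 0.20 in the shortest group to −0.84 in the longest. Scaled to the median of all genes, 1 was higher and 3 were lower, beside 5.38% and 6.31% of all genes. The gene past 2-fold was Sult2b1, a sulfotransferase for sterols, from 162 to 336 CPM (1.05). Smaller ratios above 0 were those of Cyp3a11, a detoxifying cytochrome (0.20, 0.06 to 0.33), and of the intestinal factor Cdx2 (0.11, 0.00 to 0.21). The lowest were Ugt1a1, the bilirubin glucuronidating enzyme, from 13.4 to 1.29 CPM (−3.38), and Abcc2, an apical exporter of conjugates, from 91.3 to 22.1 CPM (−2.05). Hnf4g, a nuclear receptor of enterocytes, followed from 226 to 74.1 CPM (−1.61), and these 3 were the ones that remained lower after scaling. Ppara (−1.31), Nr5a2 (−1.24), the vitamin D receptor gene Vdr (−1.21), the glucocorticoid receptor gene Nr3c1 (−1.17) and the basolateral exporter Abcc3 (−1.14) were lower by smaller amounts.

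Among the partners of FXR, Rxra, its dimerisation partner, was at 43.2 CPM in WT and 21.5 CPM in KO (−1.01, −1.21 to −0.81), while Rxrb was at 14.9 and 15.5 CPM (0.06). Gata4, which holds back ileal genes in the proximal gut, was at 44.2 and 21.9 CPM (−1.01, −1.21 to −0.81), and Hnf4a at 152 and 91.3 CPM (−0.74). Relative to the median of all genes these were −0.67 for Rxra, −0.67 for Gata4 and −0.40 for Hnf4a, with transcript length not taken into account. The receptor complex for Fgf15 was hardly found in enterocyte-like cells, with 3 WT and 1 KO UMIs of Klb and 9 and 15 of Fgfr4. Over all kept cells Klb had 105 WT and 14 KO UMIs and Fgfr4 had 106 and 144. Cyp7a1, the rate-limiting enzyme of hepatic bile acid synthesis, had 0 UMIs in kept cells of either matrix.

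**Figure D5:**
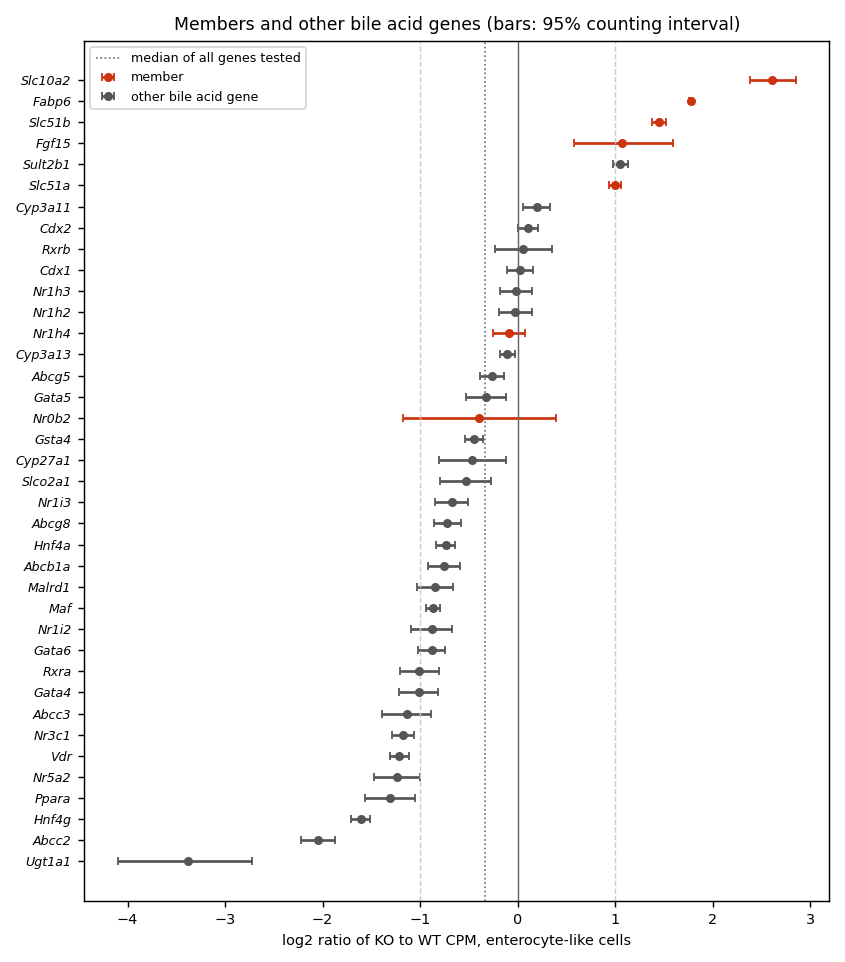
Log2 ratio of KO to WT CPM in enterocyte-like cells for the 7 members (red) and other bile acid genes with at least 50 UMIs (grey), with 95% counting intervals; dashed lines mark 2-fold and the dotted line the median of all genes (−0.34). The 4 transport members and Fgf15 stand at the upper end with Sult2b1, and Ugt1a1 is lowest at −3.38.

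In build GRCm38 (GENCODE M21) Fabp6 (ENSMUSG00000020405) lies on chromosome 11 from 43596049 to 43601540, Slc10a2 (ENSMUSG00000023073) on chromosome 8 from 5083219 to 5105351, Nr1h4 (ENSMUSG00000047638) on chromosome 10 from 89454234 to 89533585, all on the minus strand, and Nr0b2 (ENSMUSG00000037583) on chromosome 4 from 133553376 to 133556536 on the plus strand. None of these overlaps another gene. Slc51a (ENSMUSG00000035699, chromosome 16 from 32474504 to 32487879, minus strand) shares 567 bases with Pcyt1a on the other strand, which had 977 WT and 770 KO UMIs in enterocyte-like cells and a log2 ratio of −1.03, opposite to that of Slc51a. Slc51b (ENSMUSG00000053862, chromosome 9 from 65412714 to 65422955, minus strand) shares 2140 bases with Rasl12, which had 4 UMIs in each matrix. Fgf15 (ENSMUSG00000031073, chromosome 7 from 144896531 to 144900953, plus strand) overlaps Gm26793 and Gm39119, which had 4 UMIs or fewer over both matrices. Whether the counting used strand is not given in the sources used here.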

How the data were processed

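Cells sorted for EpCAM from small intestinal crypts of WT and KO mice had been profiled with a 10x Genomics 3-prime v2 kit. The deposited values are raw UMI counts per gene and barcode, 1 matrix per group, which the authors had made with Cell Ranger 4.0.0 per the file headers (the submitters' processing notes name 2.1.1 and build mm10) and default parameters. The WT matrix held 134876816 UMIs in 15987 barcodes and the KO matrix 123794575 in 12763, and 57 barcodes occurred in both. Cells with at least 200 genes and at most 30% mitochondrial UMIs, the study's limits, were kept.

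Classes were gated on summed marker UMIs per 10000, at 3500 for Paneth, 600 for goblet, 100 for mature enterocyte, 50 for enteroendocrine, 20 for cycling and 5 for tuft, stem and immature enterocyte markers, with at least 3 markers found for tuft, enteroendocrine, cycling and stem cells and 2 for immature enterocytes. Except for Paneth cells, Paneth markers had to stay under 1000. Cells passing several gates stayed unassigned, as did cells passing none, except for the shallow barcodes. The gates, the 2-marker minimum and the pooling of mEC-like and imEC-like cells were set after values of the members had been seen. The first gate asked for 3 immature markers and took mEC-like cells alone as enterocytes. The members and gene lists were likewise chosen with earlier results of these data known.

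UMIs were summed per class and matrix and given as CPM with exact Poisson intervals. Log2 ratios have exact conditional binomial intervals and shares Clopper-Pearson intervals. With 1 pooled matrix per group no test was run, and a gene was called at 2-fold. Named genes were all members, pathway genes at least 2-fold apart (at most 10, largest first) with Rxra, Hnf4a and Gata4, and the 3 genes most like each member with at least 200 UMIs. Other genes are named for their role or as markers. Values of a few genes that met these rules are not reported here. Scrublet in scanpy 1.11.5 called 1 WT and 0 KO barcodes, so it did not work and doublets were kept. Interval code was tested on simulated data. Python 3.11.15, scipy 1.17.1 and leidenalg 0.10.2 were used. Transcript lengths and positions came from GENCODE M21, in which 27645 of 27998 gene identifiers (98.7%) were found.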

Additional observations from a re-analysis of the deposited data

Results flagged for a closer look

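The summed level of Fabp6 was lower in KO in EEC-like cells (log2 ratio −1.69), although it was higher in enterocyte-like cells. The share of EEC-like cells with a Fabp6 UMI was higher in KO. Fgf15 had a log2 ratio of −2.58 in imEC-like cells, on 7 WT and 2 KO UMIs, against 1.07 in enterocyte-like cells. These differences between classes were not tested. Barcodes above the mitochondrial limit of 30%, which entered no comparison, also held more UMIs of the transport genes in KO than in WT. The log2 ratios there were 1.75 for Fabp6, 1.90 for Slc10a2, 0.53 for Slc51a and 1.32 for Slc51b.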

How the results depend on the processing

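No paired analysis was possible because each group was deposited as 1 pooled matrix, so the replicate numbers of the labels match no cells. Leaving out a replicate was not possible for the same reason. Over 18 alternatives Fabp6 (0.61 to 2.77), Slc10a2 (0.46 to 3.44), Slc51a (0.33 to 1.83) and Slc51b (0.67 to 2.28) stayed above 0. Not among the 18 were imEC-like cells without clusters nearly all of 1 matrix, where Fabp6 (−0.13) and Slc10a2 (−0.63) were below 0 and Slc51a was near it (−0.01). Fgf15 was above 0 in 17 and Nr1h4 in 4, and Nr0b2 was below 0 in 17. These values are log2 ratios except with log-normalised values, which are explained below. The log2 ratio of Fabp6, 1.77 as reported, was 1.70 with a mitochondrial limit of 15%, 1.83 without the 8% of cells with the highest Scrublet scores, 1.64 under a gate with doubled cuts, 1.70 with Leiden clusters, 1.74 and 1.81 with mitochondrial genes or genes above 1% out of the total, 2.11 scaled by the median of all genes and 2.60 as mean UMIs per cell. Since Scrublet called almost no barcodes, removing its highest scores may not have removed doublets. The difference in means of log-normalised values was 2.25. Alternatives chosen after seeing the data gave 2.77 in mEC-like cells alone, which was the first gate used, 0.61 in imEC-like cells alone, 1.90 with at least 3 immature markers, 1.63 with a mature cut of 50, 1.29 with KO bins weighted as in WT and 0.61 without clusters nearly all of 1 matrix, where 0 members were at least 2-fold higher. The members' median, 1.07 as reported, moved to 1.90 per cell, 0.46 with log-normalised values (where 1 member was at least 2-fold higher) and 0.33 in imEC-like cells alone (where 0 were, and Fgf15 reversed to −2.58). Genes at least 2-fold higher and lower numbered 209 and 1657, 532 and 624 after scaling by the median, and 541 and 2679 with at least 1 UMI in each matrix. The cause of these shifts was not tested. Fgf15 and Nr0b2 are limited by depth.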
